A study of Mus musculus with 14 samples.

Results

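The transcripts described here are 8 genes that mark neurons and glia, read in macrophages sorted from injured mouse brain and in monocytes sorted from blood: Slc1a2, Gja1, Fabp7, Aldoc and Gfap of astrocytes, Nefl and Snap25 of neurons, and Mbp of oligodendrocytes. They were found as the non-control array probes whose RefSeq accession belongs to 1 of these 8 gene symbols, which gave 11 probes. The array holds 41174 such probes, of which 24844 were named, for 17178 genes. Slc1a2 had 2 probes, Mbp had 3 and each other gene had 1, and all 11 passed the filter on dim probes. The rule uses symbols only and no measured value.

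Gene expression was measured on 14 Agilent 1-colour arrays in 4 groups of male mice of the YARG strain, which carries a fluorescent reporter of Arginase-1, aged 12 to 16 weeks. Arg1+ and Arg1- macrophages (4 arrays each) were sorted from the brain 1 day after a traumatic brain injury (TBI) by controlled cortical impact, monocytes from the blood of injured mice at the same time (3 arrays), and monocytes from the blood of untreated mice (3 arrays). Every animal carried the reporter, and no brain cells of uninjured or sham-operated mice are among the samples. Brains were perfused, digested with collagenase and DNase and put through Percoll, blood was put through ficoll, and cells were stained for CD45, CD11b, Ly6G and F4/80 with a dead-cell dye. Replicates are numbered, but nothing says that they are separate animals, so p-values measure only the spread between these samples, part of which may be technical.

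Astrocytes clear glutamate from the synapse through transporters, are joined to each other by gap junctions and thicken their intermediate filaments after injury. Oligodendrocytes wrap axons in myelin, whose inner faces are held together by myelin basic protein. Macrophages and microglia take up dying neurons, myelin and debris in an injured brain, and a sorted macrophage fraction can also carry fragments or cells of its neighbours. In bulk samples such as these, fewer cells of a type and less RNA per cell cannot be told apart.

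Levels are log2 of the background-subtracted signal over each array's 75th percentile, so 0 is that percentile and 1 unit is a doubling. The lowest value that can be given is -4.32, called the floor here. Levels of a probe are compared across arrays, since probes differ in how much signal a given amount of RNA gives, and where a gap between probes or a sum over probes is given, only its change across arrays is read. The 75th percentile of the processed signal ran from 119.4 on Arg1+ array 1 to 418.5 on Arg1- array 3, and the share of probes detected above background lay between 50.4% and 68.69%. Genes of monocytes and macrophages were detected in every sort. The summed level of 9 such genes, Csf1r and Itgam (CD11b) among them, was 194.48 to 246.57 times the percentile on the 8 brain arrays and 155.11 to 313.04 times on the 6 blood arrays, with 8 or 9 of the 9 above background on every array. Csf1r was the brightest of them in brain and post-TBI sorts, so the sum does not show that each gene was alike in level. Genes of this list that differed between groups are given with the other marker lists.

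Brain arrays held readings of nearly all of these transcripts, and blood arrays of fewer. The probes of Slc1a2 (both), Gja1, Nefl and Snap25 lay at the floor on all 6 blood arrays, whether the mouse was injured or not. The limma fit takes a single residual spread per probe over all groups, and for these probes the blood arrays add none (SD 0). Their standard errors, intervals and p-values, also between the brain groups, can thus look more precise than the spread of the brain arrays alone would give. Of the 88 readings of the 11 probes on brain arrays, 81 were well above background, and 30 of the 66 readings on blood arrays were at the floor. Fabp7, Aldoc and the 3 probes of Mbp were above background on every array of every group.

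**Figure D1:**
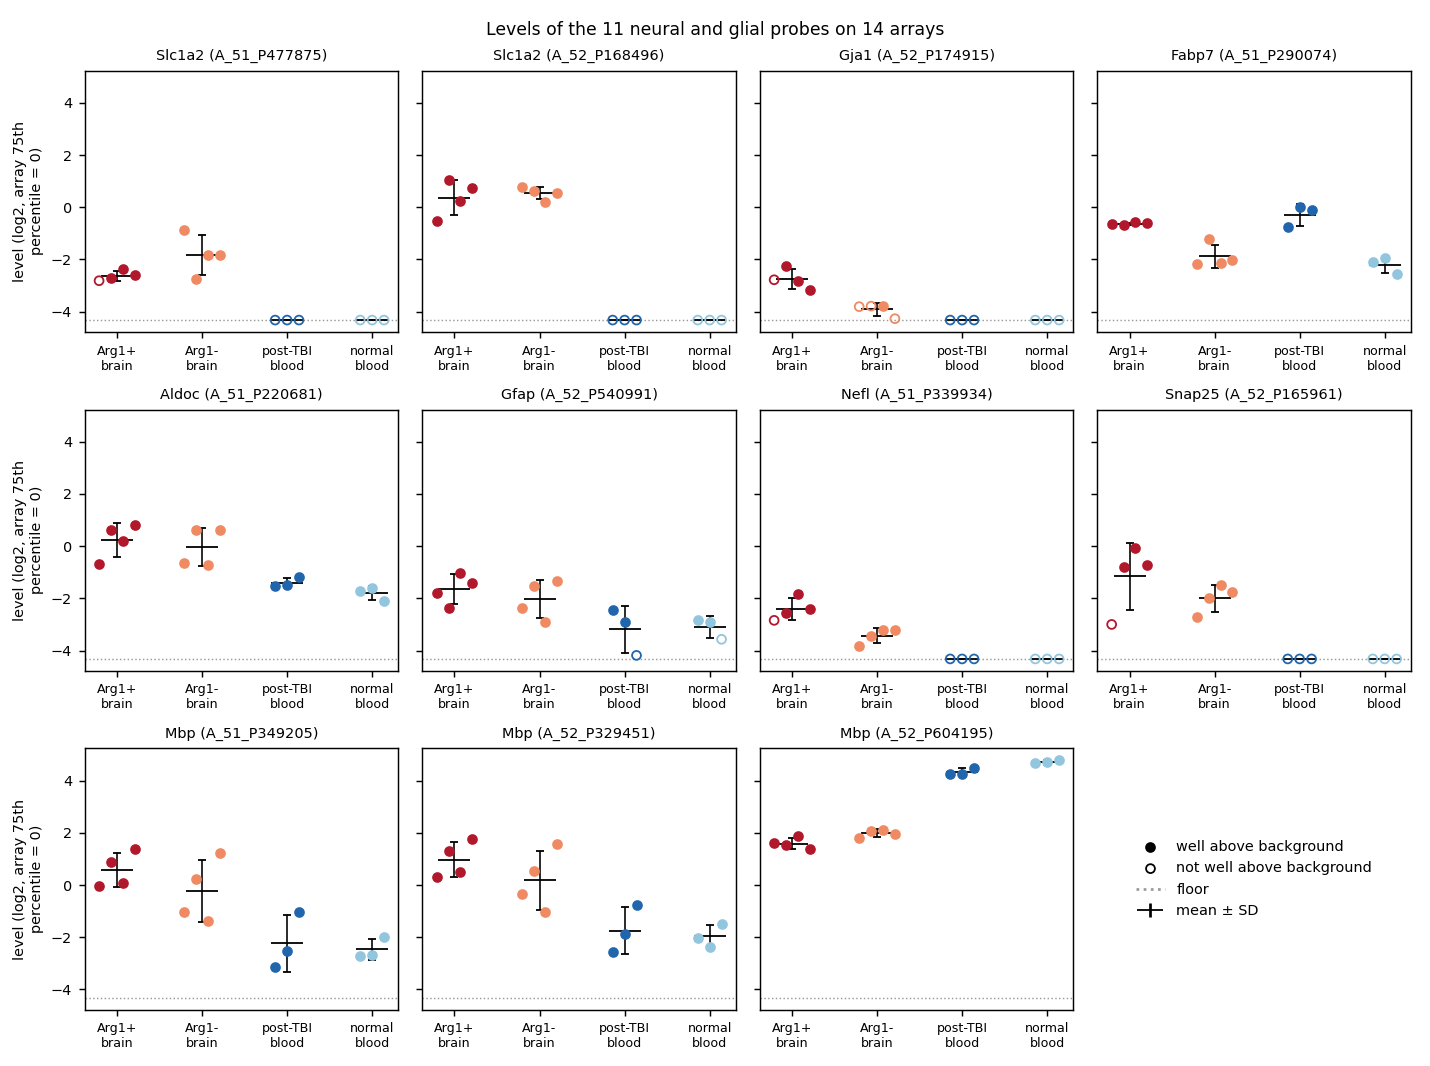
Level (log2, array 75th percentile = 0) of each of the 11 probes on each of the 14 arrays by group, with filled points well above background, open points not, the mean ± SD as black bars and the floor of -4.32 as a dotted line. The 5 probes of Slc1a2, Gja1, Nefl and Snap25 lie on the floor in both blood groups, Fabp7 is high in Arg1+ brain and post-TBI blood, and the Mbp probe A_52_P604195 is higher in blood than in brain.

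Of the 11 probes, 3 were higher in Arg1+ than in Arg1- brain macrophages and none lower at an adjusted p under 0.05, those of Gja1, Fabp7 and Nefl. Among all 27605 probes tested, 2.30% were called higher and 2.95% lower in this comparison, 5.25% in all. The median difference of the 11 probes was 0.78, beside 0.01 over all probes tested. Between Arg1+ brain macrophages and post-TBI monocytes, 9 probes were higher in brain and 1 lower, beside 20.8% and 20.7% of all probes (41.5% in all), with a median of 1.70 beside -0.02. Between Arg1- brain macrophages and post-TBI monocytes, 7 were higher and 2 lower, beside 17.7% and 17.5% (35.2% in all), with a median of 1.37 beside -0.02. Both comparisons use the same 3 post-TBI blood arrays. Between post-TBI and normal monocytes the only call was Fabp7, beside 0.0869% of all probes called higher, 0.0398% lower and 0.127% in all. The arrays of the 2 groups did not overlap for 3, 10, 8 and 3 of the 11 probes in these 4 comparisons in turn, beside 15.0%, 40.8%, 38.1% and 9.35% of all probes.

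**Figure D2:**
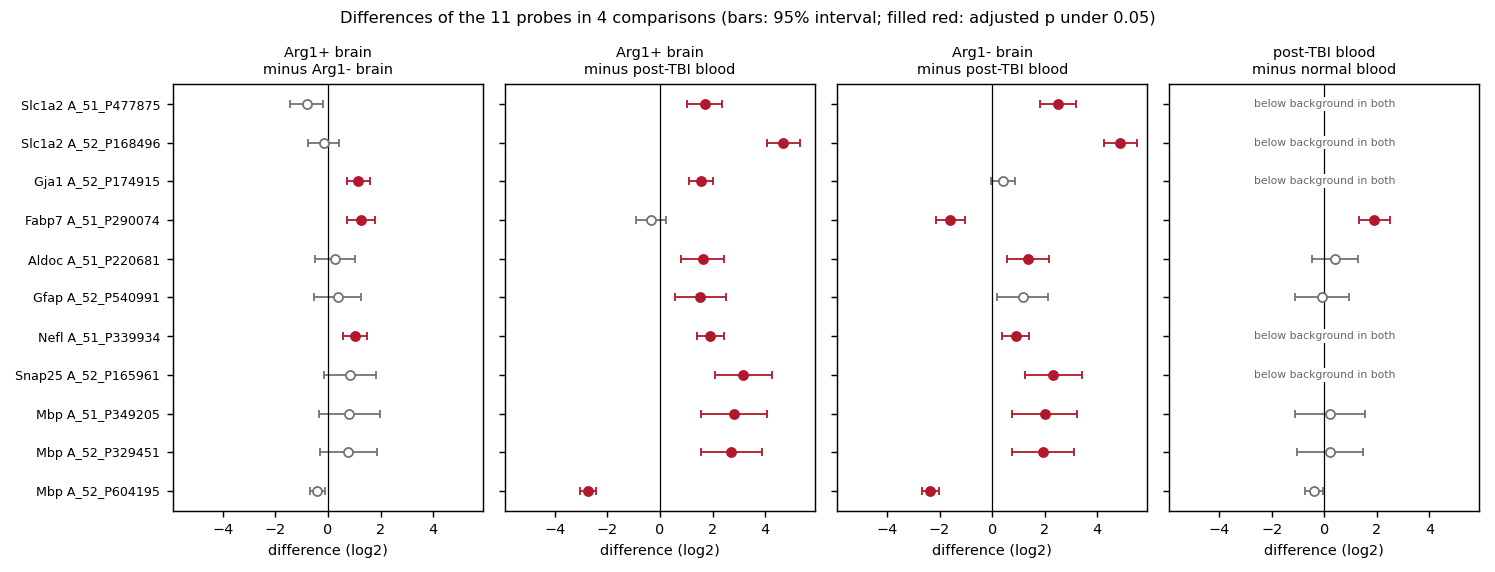
Difference (log2) of each of the 11 probes in the 4 comparisons, with 95% intervals from the limma fit; filled red points passed an adjusted p under 0.05 over all 27605 probes. In the 2 brain-to-blood panels the points of Slc1a2, Gja1, Nefl and Snap25 depend on the floor, since their blood arrays all lie on it, and in the panel of the blood groups these probes have no point. The Mbp probe A_52_P604195 is the only one on the blood side in both brain-to-blood comparisons apart from Fabp7.

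Slc1a2 encodes GLT-1, the main glutamate transporter of astrocytes. Its probe A_52_P168496 (accession NM_001077514) read -0.51, 1.04, 0.23 and 0.74 on Arg1+ arrays 1 to 4, and 0.76, 0.64, 0.21 and 0.56 on Arg1- arrays 1 to 4. All 8 brain arrays were above background and the groups overlapped, with means of 0.37 ± 0.68 and 0.54 ± 0.23 (SD, n = 4 each). The difference, -0.17 ± 0.27 (SE, 95% interval -0.75 to 0.41, adjusted p = 0.851), changed sign to 0.13 without Arg1+ array 1. Against post-TBI monocytes the level was at least 25.9-fold higher in Arg1+ (difference 4.70 ± 0.29, adjusted p = 8.75e-09) and at least 29.1-fold higher in Arg1- macrophages (4.86 ± 0.29, adjusted p = 1.17e-08). On every blood array the lowest signal that counted as above background lay at the floor. These folds are thus the mean of the brighter group over the floor. Like the other folds over blood given as at least, they are lower bounds for this scaling and floor only. Readings of the brighter group were taken as read, also those not above background. Arg1+ array 1 was such a reading for Gja1, Nefl, Snap25 and Slc1a2 A_51_P477875. For these probes the fold of Arg1+ macrophages over blood is not a strict lower bound, nor is that of Gja1 in Arg1- macrophages. With a floor of 0.1 in place of 0.05 the differences were 3.70 (adjusted p = 2.62e-06) and 3.86 (adjusted p = 3.12e-06), with the authors' deposited values 2.95 and 3.09, and after normexp and quantile normalization together 2.40 and 2.54, all of them called.

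The other Slc1a2 probe, A_51_P477875 (NM_011393), read -2.81, -2.70, -2.38 and -2.60 in Arg1+ and -0.88, -2.76, -1.82 and -1.81 in Arg1- macrophages. The reading of -2.81 was not above background, and Arg1- array 2 lay among the Arg1+ values while the other Arg1- arrays lay above all of them. The difference of -0.80 ± 0.29 did not pass (adjusted p = 0.144), but was called at -1.12 (adjusted p = 0.0174) without Arg1- array 2. Both fits include the blood arrays, which have no spread on this probe, while the brain SDs were 0.18 in Arg1+ and 0.77 in Arg1- macrophages. Against post-TBI monocytes this probe was at least 3.24-fold higher in Arg1+ and at least 5.67-fold higher in Arg1- macrophages (adjusted p = 5.15e-04 and 2.25e-05). With a floor of 0.1 the differences were 0.70, no longer called (adjusted p = 0.108), and 1.50 (adjusted p = 0.00369).

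Gja1 encodes connexin 43, the gap junction protein of astrocytes. Its probe A_52_P174915 (NM_010288) was dim and read -2.78, -2.24, -2.83 and -3.18 in Arg1+ macrophages and -3.81, -3.79, -3.80 and -4.27 in Arg1- macrophages. The groups did not overlap, and 3 of 4 Arg1+ but only 1 of 4 Arg1- arrays were well above background. It rose by 1.16 ± 0.20 in Arg1+ macrophages (adjusted p = 0.00328), though with 3 Arg1- readings under detection the size is uncertain. On slide 4, the only slide where both readings were above background, the difference was 1.56. On slides 2 and 3, where only the Arg1+ reading was, it was 0.98 and 0.61, and on slide 1 neither was. The difference was 0.57 (adjusted p = 0.0397) with a floor of 0.1, 0.37 (adjusted p = 0.0243) after normexp and quantile normalization together and 0.52 (adjusted p = 0.0276) with the authors' deposited log2 values. Against post-TBI monocytes Gja1 was at least 2.96-fold higher in Arg1+ macrophages (adjusted p = 3.82e-05), a difference of 0.57 (adjusted p = 0.0112) with a floor of 0.1. In Arg1- macrophages the difference of 0.41 ± 0.22 did not pass (adjusted p = 0.171), though it did after normexp and quantile normalization (0.33, adjusted p = 0.0141) and with the authors' deposited values (0.55, adjusted p = 0.00515).

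Fabp7, the fatty acid binding protein of radial glia and astrocytes, followed another pattern and was the only gene of the 8 called between the blood groups. Its probe A_51_P290074 (NM_021272) read -0.63, -0.69, -0.58 and -0.62 in Arg1+ macrophages and -2.16, -1.23, -2.14 and -2.01 in Arg1- macrophages. In post-TBI monocytes 1, 3 and 4 it read -0.77, 0.00 and -0.11, and in normal monocytes 2, 3 and 4 it read -2.09, -1.96 and -2.54. The Arg1+ arrays lay within 0.11 of each other and above every Arg1- array, and the post-TBI arrays lay above every normal array.

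Fabp7 rose by 1.25 ± 0.24 in Arg1+ over Arg1- macrophages (adjusted p = 0.00675), with 1.38, 1.58, 0.61 and 1.46 within slides 1 to 4. In post-TBI over normal monocytes it rose by 1.91 ± 0.28, or 3.75-fold (adjusted p = 0.0147), with 2.09, 2.44 and 1.19 within slides 1 to 3. An exact permutation test of the 3 against 3 blood arrays gave p = 0.1, which is the smallest that so few arrays allow. Since the arrays of the blood groups did not overlap, the test could give no other value and adds nothing to that order. The blood call was lost without post-TBI array 3 (1.76, adjusted p = 0.0892), without post-TBI array 4 (1.82, adjusted p = 0.0666), without normal array 2 (1.96, adjusted p = 0.0546) and without normal array 4 (1.73, adjusted p = 0.0523). It was also lost with only the 2 blood groups in the fit (adjusted p = 0.965) and with the replicate number as a block (2.09, adjusted p = 0.0527). Arg1- macrophages were 3.02-fold lower than post-TBI monocytes (-1.59 ± 0.26, adjusted p = 2.43e-04), and Arg1+ macrophages differed from post-TBI monocytes by -0.34 ± 0.26 (95% interval -0.90 to 0.22, adjusted p = 0.335). In order of level, post-TBI monocytes (-0.29 ± 0.41, SD, n = 3) and Arg1+ macrophages (-0.63 ± 0.04, n = 4) were not told apart by the test, and Arg1- macrophages (-1.88 ± 0.44, n = 4) overlapped normal monocytes (-2.20 ± 0.31, n = 3). Fabp4, the fatty acid binding protein of fat cells and macrophages, also rose in Arg1+ over Arg1- macrophages (1.17 ± 0.22, adjusted p = 0.00559), and between the blood groups it differed by 0.15 ± 0.28.

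Gja1 and Fabp7 are those of the 5 astrocyte genes described here that were higher in Arg1+ macrophages, and both have a promoter in the RefSeq table. Their 250 bases before the start site follow, on the plus strand of chromosome 10 in GRCm38.p6, to show what they hold of the motifs searched. Capitals mark a match to the AP-1 motif.
Gja1 chr10:56377050-56377299: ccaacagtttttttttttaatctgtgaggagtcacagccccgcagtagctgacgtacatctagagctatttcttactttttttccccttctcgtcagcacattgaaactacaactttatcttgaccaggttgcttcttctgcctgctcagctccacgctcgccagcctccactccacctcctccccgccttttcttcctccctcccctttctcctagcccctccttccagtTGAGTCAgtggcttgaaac
Fabp7 chr10:57784673-57784922: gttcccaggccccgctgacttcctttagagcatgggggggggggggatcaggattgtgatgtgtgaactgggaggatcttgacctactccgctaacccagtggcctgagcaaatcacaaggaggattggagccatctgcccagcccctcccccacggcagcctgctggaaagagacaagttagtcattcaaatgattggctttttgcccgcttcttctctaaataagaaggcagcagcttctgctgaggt

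RefSeq promoters were at hand for 5 of the 8 genes, Slc1a2, Gja1, Fabp7, Aldoc and Gfap. The same window of each was searched on both strands for the AP-1 motif TGANTCA, the hypoxia response core ACGTG and the glucocorticoid receptor half-site AGAACA, none of which holds another. The 1 match among the 5 genes was TGAGTCA in Gja1, 19 to 13 bases before the start. Of 32851 promoters, 6.75% hold the AP-1 motif, 16.6% the hypoxia core and 16.1% the half-site, so a match or its lack in a single window is a description only.

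Aldoc encodes the brain form of the glycolytic enzyme aldolase, found in astrocytes and some neurons. Its probe A_51_P220681 (NM_009657) read -0.69, 0.61, 0.19 and 0.81 in Arg1+ and -0.63, 0.60, -0.71 and 0.62 in Arg1- macrophages. It read -1.52, -1.48 and -1.18 in post-TBI monocytes and -1.73, -1.59 and -2.11 in normal monocytes. Every brain array lay above every blood array, while the 2 brain groups overlapped throughout. Aldoc was 3.09-fold higher in Arg1+ macrophages than in post-TBI monocytes (1.63 ± 0.38, adjusted p = 0.00300) and 2.58-fold higher in Arg1- macrophages (1.37 ± 0.38, adjusted p = 0.0115). The brain groups differed by 0.26 ± 0.35 (95% interval -0.49 to 1.01, adjusted p = 0.812) and the blood groups by 0.41 ± 0.41 (adjusted p = 0.987), although no post-TBI array overlapped a normal one. Aldoa, the widely expressed aldolase, rose by 0.76 ± 0.21 in Arg1+ over Arg1- macrophages (adjusted p = 0.0474), by 2.02 ± 0.22 over post-TBI monocytes in Arg1+ and by 1.26 ± 0.22 in Arg1- macrophages. Whether the Aldoc probe takes up Aldoa RNA was not tested.

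Gfap encodes the intermediate filament protein of reactive astrocytes. Its probe A_52_P540991 (NM_010277) read -1.79, -2.39, -1.04 and -1.41 in Arg1+, -2.37, -1.53, -2.91 and -1.32 in Arg1- macrophages, -2.46, -2.93 and -4.19 in post-TBI monocytes and -2.82, -2.91 and -3.57 in normal monocytes. It was above background on all 8 brain arrays and on all blood arrays but post-TBI array 4 and normal array 4. Between the brain groups Gfap differed by 0.37 ± 0.42 (95% interval -0.52 to 1.27, adjusted p = 0.752), with overlapping arrays. It was 2.90-fold higher in Arg1+ macrophages than in post-TBI monocytes (1.54 ± 0.46, adjusted p = 0.0134), a call lost without post-TBI array 4 (1.04, adjusted p = 0.0832). In Arg1- macrophages the difference was 1.16 ± 0.46 (adjusted p = 0.0603), and it passed with slide as a block (1.43, adjusted p = 0.00510), after quantile normalization (1.12, adjusted p = 0.0436), without Arg1- array 3 (1.45, adjusted p = 0.0243) and without post-TBI array 1 (1.52, adjusted p = 0.0266). The blood groups differed by -0.09 ± 0.49, with no settled sign.

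Of the neuronal genes, Nefl encodes the light subunit of neurofilaments. Its probe A_51_P339934 (NM_010910) read -2.84, -2.54, -1.85 and -2.40 in Arg1+ and -3.84, -3.43, -3.23 and -3.23 in Arg1- macrophages. The groups did not overlap, and the reading of -2.84 was the only 1 of the 8 not above background. Nefl rose by 1.02 ± 0.22, or 2.03-fold, in Arg1+ macrophages (adjusted p = 0.0119), and by 0.38, 1.99, 1.03 and 0.69 within slides 1 to 4. After normexp and quantile normalization the difference was 0.44 (adjusted p = 0.00730). It was at least 3.77-fold higher in Arg1+ and at least 1.85-fold higher in Arg1- macrophages than in post-TBI monocytes (adjusted p = 1.10e-05 and 0.00814), and with a floor of 0.1 these differences were 0.91 (adjusted p = 0.00119) and 0.05 (adjusted p = 0.917).

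Snap25 encodes a membrane protein of the machinery that fuses synaptic vesicles. Its probe A_52_P165961 (NM_011428) read -3.00, -0.81, -0.06 and -0.73 in Arg1+ and -2.71, -1.98, -1.50 and -1.77 in Arg1- macrophages. Arg1+ arrays 2, 3 and 4 lay above every Arg1- array, while Arg1+ array 1 was the lowest of all 8 and was not above background. The difference of 0.84 ± 0.46 did not pass (adjusted p = 0.385). It was called at 1.46 (adjusted p = 0.00972) without Arg1+ array 1, which also had the lowest 75th percentile of the 14 arrays. Both fits include the blood arrays, which have no spread on this probe, while the brain SDs were 1.28 in Arg1+ and 0.52 in Arg1- macrophages. The standard error and the call without Arg1+ array 1 thus rest partly on arrays at the floor. Against post-TBI monocytes Snap25 was at least 9.01-fold higher in Arg1+ macrophages (difference 3.17 ± 0.50, adjusted p = 1.24e-04, and 3.79 without Arg1+ array 1) and at least 5.03-fold higher in Arg1- macrophages (2.33 ± 0.50, adjusted p = 0.00211). With a floor of 0.1 the difference was 2.17 in Arg1+ (adjusted p = 0.00884) and 1.33 in Arg1- macrophages, where the call was lost (adjusted p = 0.0897). In Arg1+ macrophages it was 2.08 with the authors' deposited values and 1.45 after normexp and quantile normalization, both called. Its widely expressed relatives Snap23 and Snap29 differed from post-TBI monocytes by 0.70 ± 0.26 (adjusted p = 0.0450) and 0.90 ± 0.19 (adjusted p = 0.00163) in Arg1+ macrophages, and by 0.54 ± 0.27 (adjusted p = 0.146) and 0.31 ± 0.19 (adjusted p = 0.239) in Arg1- macrophages.

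Mbp encodes myelin basic protein, and the same locus also makes longer Golli transcripts from an upstream start, which are known in cells of the immune system. Its 3 probes fell into 2 patterns. A_51_P349205 (NM_010777) read -0.03, 0.87, 0.09 and 1.37 in Arg1+ and -1.03, 0.21, -1.37 and 1.21 in Arg1- macrophages, and -3.14, -2.53 and -1.05 in post-TBI and -2.73, -2.67 and -2.00 in normal monocytes. A_52_P329451, of the same accession, followed it: 0.30, 1.29, 0.51 and 1.76 in Arg1+, -0.33, 0.54, -1.04 and 1.58 in Arg1-, -2.57, -1.89 and -0.78 in post-TBI and -2.04, -2.36 and -1.51 in normal blood. On both probes brain was high and blood low, with post-TBI array 4 the highest of the 6 blood arrays.

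The third probe, A_52_P604195 (NM_001025245), ran the other way. It read 1.59, 1.51, 1.88 and 1.37 in Arg1+ and 1.80, 2.08, 2.11 and 1.96 in Arg1- macrophages, but 4.27, 4.25 and 4.49 in post-TBI and 4.68, 4.70 and 4.78 in normal monocytes. Every blood array lay above every brain array, and the spread within groups was at most 0.21 (SD).

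In Arg1+ macrophages the NM_010777 probes were higher than in post-TBI monocytes by 2.82 ± 0.58 (7.04-fold, adjusted p = 0.00123) and 2.71 ± 0.55 (6.56-fold, adjusted p = 9.95e-04), while A_52_P604195 was 6.72-fold lower (-2.75 ± 0.15, adjusted p = 1.62e-09). In Arg1- macrophages the first 2 were higher by 2.00 ± 0.58 (adjusted p = 0.0151) and 1.93 ± 0.55 (adjusted p = 0.0127) with overlapping arrays, and A_52_P604195 was 5.09-fold lower (-2.35 ± 0.15, adjusted p = 1.75e-08). Post-TBI arrays weighed on the first 2: for A_51_P349205 the difference from Arg1+ was 3.41 and from Arg1- 2.59 without post-TBI array 4. The Arg1- calls were lost without post-TBI array 1 (1.55, adjusted p = 0.0737, and 1.52, adjusted p = 0.0627), and that of A_51_P349205 also without post-TBI array 3 (1.85, adjusted p = 0.0581). They were lost too with only the 2 groups in the fit (adjusted p = 0.0614 and 0.0512) and with no filter on dim probes (0.0576 and 0.0506).

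The split between Mbp probes is described on each array as the gap between 2 probes, chosen after the levels were seen and given as a description only. The gap of A_51_P349205 to A_52_P604195 was -1.62 ± 1.16 in brain (SD, n = 8) and -6.88 ± 0.72 in blood (n = 6), a change of 5.26 with no overlap of brain and blood arrays. For A_52_P329451 the change was 5.18, again with no overlap. The gap between the 2 probes of NM_010777 was -0.41 ± 0.12 in brain and -0.49 ± 0.17 in blood (change 0.08). Which exons or transcript forms each probe reads was not tested.

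**Figure D3:**
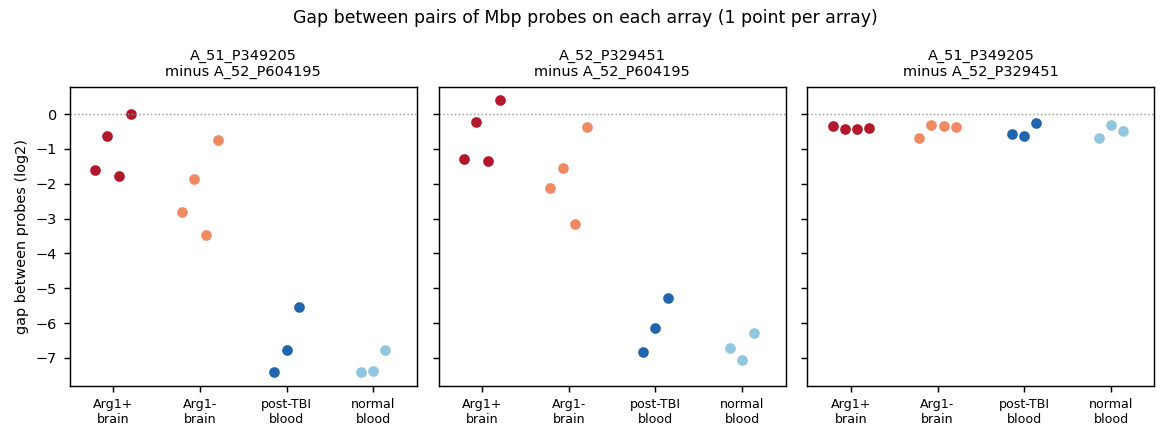
Gap (log2) between 2 Mbp probes on each of the 14 arrays, 1 point per array, for the 3 pairs of probes. Both gaps to A_52_P604195 lie between -3.48 and 0.39 on brain arrays and between -7.41 and -5.28 on blood arrays, while the gap between the 2 probes of NM_010777 stays between -0.70 and -0.27 on all arrays.

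Between Arg1+ and Arg1- macrophages none of the Mbp probes passed: 0.82 ± 0.54 (adjusted p = 0.499), 0.78 ± 0.51 (adjusted p = 0.490) and -0.40 ± 0.14 (adjusted p = 0.116). Within slides the difference of A_51_P349205 ran from -1.24 on slide 1 to 2.25 on slide 4. On the NM_010777 probes the blood groups differed by 0.22 ± 0.62 (95% interval -1.11 to 1.56) and 0.22 ± 0.59 (-1.03 to 1.47), signs that turned to -0.37 and -0.26 without post-TBI array 4, while A_52_P604195 was -0.39 ± 0.16 in post-TBI against normal monocytes (adjusted p = 0.658) with no overlap of arrays.

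Brain arrays of 1 group did not share one order over the 8 genes. Arg1+ array 1 lay 0.52 under its group mean on average over the 11 probes and above it on 1 probe only, and 7 of its 11 readings were above background. Arg1- arrays 1 and 3 were low, and 2 and 4 high, for Aldoc, Gfap and the NM_010777 probes of Mbp. Snap25 and Nefl were highest in Arg1+ array 3, and the NM_010777 probes of Mbp in Arg1+ array 4.

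**Figure D4:**
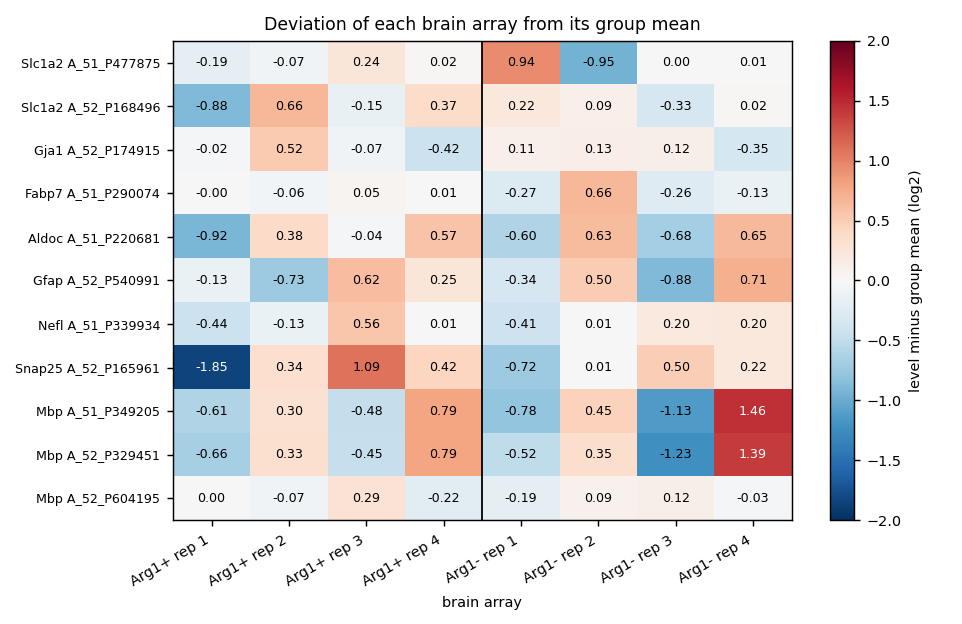
Level of each probe on each brain array minus its group mean (log2), red above and blue below, for 4 Arg1+ and 4 Arg1- arrays. Arg1+ array 1 is low for Snap25 (-1.85), Aldoc (-0.92) and Slc1a2 A_52_P168496 (-0.88), and Arg1- arrays 3 and 4 are opposite for Mbp.

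Over these deviations on the 8 brain arrays, the genes most like Aldoc among 12638 symbols were Kif5a (Pearson r = 0.99), a kinesin of neurons, Gpm6b (0.98), a membrane glycoprotein of neurons and glia, and Cpe (0.97), a peptide-processing enzyme. Those most like the Fabp7 probe were Ankrd33 (0.99), Cdh2 (0.99) and Olfr1271 (0.98), and most like Gfap were Abhd4 (0.99), Tmem115 (0.99) and Hoxa7 (0.98). Slc1a2 A_52_P168496 was matched by Tmem202 (0.98), Atp2c1 (0.97) and Srprb (0.97). The 3 probes of Mbp had Cyp2b9, Acot4 and Skiv2l (0.94 each), Ppm1f (0.95), Acot4 (0.94) and Slc4a3 (0.92), and Brox (0.98), Gxylt1 (0.96) and Fam98b (0.96). These are the highest of many correlations over 8 arrays that share slides and signal strength, and describe these arrays only. Gja1, Nefl, Snap25 and the other Slc1a2 probe were below background on some brain array and were not matched.

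Further markers of the same cell types were read in the same way. Of a list of 20 astrocyte genes 19 were tested, Slc1a3 having no tested probe. Between Arg1+ and Arg1- macrophages their median difference was 0.41, with 2 higher in Arg1+ and none lower, beside 2.30% and 2.95% of all probes. These were Plpp3, a lipid phosphatase (2.43 ± 0.23, adjusted p = 3.24e-05), and Glul, the glutamine synthetase that macrophages also make (0.83 ± 0.13, adjusted p = 0.00153). Aqp4, the water channel of astrocyte end-feet, differed by 0.70 ± 0.35 (adjusted p = 0.313). Against post-TBI monocytes, 10 of the 19 were higher and 1 lower in Arg1+ macrophages (median 0.93), beside 20.8% of all probes higher and 20.7% lower. In Arg1- macrophages 4 were higher and 1 lower (median 0.54), beside 17.7% and 17.5%, so the count of higher genes lies near the background. The lower gene was Clu, a secreted chaperone, with differences of -1.73 ± 0.59 (adjusted p = 0.0278) and -1.98 ± 0.59 (adjusted p = 0.0163). Plpp3 was at least 43.4-fold higher in Arg1+ and at least 8.07-fold higher in Arg1- macrophages, and Ndrg2 was higher by 2.70 ± 0.58 and 2.64 ± 0.58.

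Of 15 tested neuronal genes (of 19), none was higher and 1 lower in Arg1+ than in Arg1- macrophages, beside 2.30% and 2.95% of all probes. Their median difference was 0.51. The 1 called was Uchl1, a deubiquitinase abundant in neurons (-1.16 ± 0.30, adjusted p = 0.0368), opposite in sign to Nefl, and it was at least 7.54-fold and 16.9-fold higher in Arg1+ and Arg1- macrophages than in post-TBI monocytes. Against post-TBI monocytes 8 were higher and 2 lower in Arg1+ macrophages (median 1.25), beside 20.8% and 20.7% of all probes. In Arg1- macrophages 5 were higher and 2 lower (median 0.56), beside 17.7% and 17.5%. Stmn2, a tubulin regulator of growing axons, was higher by 2.60 ± 0.41 in Arg1+ and by 2.09 ± 0.41 in Arg1-. The lower genes were Gad1, which makes GABA, at least 6.92-fold and 7.50-fold lower in Arg1+ and Arg1- macrophages, and Nrgn, a postsynaptic protein also found in platelets, with differences of -2.43 ± 0.64 and -3.04 ± 0.64.

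Of 10 tested oligodendrocyte lineage genes (of 16, Mog and Olig1 having no tested probe), none was called between the brain groups (median 0.30). Against post-TBI monocytes 3 were higher in Arg1+ (median 0.27) and 2 in Arg1- macrophages (median 0.10), with none lower, beside 20.8% and 17.7% of all probes called higher, so these counts lie near the background. Mobp, a myelin protein, was higher by 1.97 ± 0.45 and 1.41 ± 0.45. None of the astrocyte, neuronal or oligodendrocyte genes was called between the blood groups.

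The summed level of the 19 astrocyte genes was 15.52 to 20.45 times the 75th percentile on Arg1+, 8.68 to 12.47 on Arg1-, 7.73 to 11.25 on post-TBI and 6.71 to 7.73 on normal arrays, with every Arg1+ array above all others. Much of this came from the 2 called genes: without Plpp3 and Glul the other 17 summed to 4.97 to 10.1 on Arg1+, 3.73 to 7.48 on Arg1-, 3.66 to 5.69 on post-TBI and 2.78 to 3.74 on normal arrays, and the Arg1+ arrays overlapped the Arg1- and post-TBI arrays. That sum was made after the values were seen. The 15 neuronal genes summed to 6.42 to 22.31 on Arg1+, 5.48 to 8.95 on Arg1-, 5.04 to 8.35 on post-TBI and 5.20 to 5.60 on normal arrays, with Arg1+ array 3 the highest. The 10 oligodendrocyte genes summed to 5.06 to 7.09, 3.98 to 5.56, 4.08 to 9.21 and 4.50 to 5.63 in the same order of groups. These sums too are led by the brightest genes. Cnp was the brightest oligodendrocyte gene, with mean log2 levels of 1.63 in Arg1+, 1.33 in Arg1- and 1.84 in post-TBI sorts. Syp was the brightest neuronal gene in the brain groups (2.62 in Arg1+ and 1.75 in Arg1-). Sums without these genes were not made. On the oligodendrocyte sum post-TBI array 4 was the highest of the 14, with 6 of the 10 genes above background. It was also the highest blood array for the NM_010777 probes of Mbp and the lowest for Gfap. The same array was the highest blood array for the astrocyte (11.25), neuronal (8.35), endothelial (12.75), monocyte and macrophage (313.04), neutrophil (5.84) and red cell (122.97) sums. It was not for the microglial (26.4) or the ependyma and choroid plexus sum (0.67). Its high sum was thus not particular to oligodendrocyte genes.

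Some lists of markers of other cells also differed between groups. Of the 9 monocyte and macrophage genes, none was higher and 1 lower in Arg1+ than in Arg1- macrophages, beside 2.30% and 2.95% of all probes. This was Ptprc (CD45, -0.71 ± 0.16, adjusted p = 0.0190). Against post-TBI monocytes 2 were higher and 2 lower in Arg1+, near the 20.8% and 20.7% of all probes. These were Cd14 (2.05) and Fcgr1 (1.88), and Ptprc (-1.75) and Cebpb (-1.27). The 12 microglial genes summed to 59.14 to 92.07 on Arg1+ and 49.21 to 68.43 on Arg1- arrays, and to 11.95 to 27.32 on blood arrays. The sums of the brain groups overlapped, and none of the 12 genes was called between them. The 6 neutrophil genes summed to 1.95 to 9.20 on Arg1+ but 22.90 to 121.46 on Arg1- arrays. Beside 2.95% of all probes, 5 of the 6 were lower in Arg1+ than in Arg1- macrophages. Of these, Ngp differed by -4.38 ± 0.59 (adjusted p = 4.45e-04). Of 9 endothelial genes none was called between the brain groups. Against post-TBI monocytes 4 were higher and 1 lower in Arg1+ macrophages (median 0.03), beside 20.8% and 20.7% of all probes. Of receptors for vascular growth factor, Kdr was at least 21.5-fold higher and Flt1 lower (-2.32 ± 0.62, adjusted p = 0.00703). Of 4 ependyma and choroid plexus genes, 1 was higher in Arg1+ macrophages than in post-TBI monocytes, a count near the 20.8% of all probes. This was Ttr, a transport protein, higher by at least 8.22-fold. The 3 red cell genes summed to 0.33 to 1.18 on brain and 8.16 to 122.97 on blood arrays, and none was called between the brain groups. The part of any of these cells in the values of the 8 genes was not tested.

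**Figure D5:**
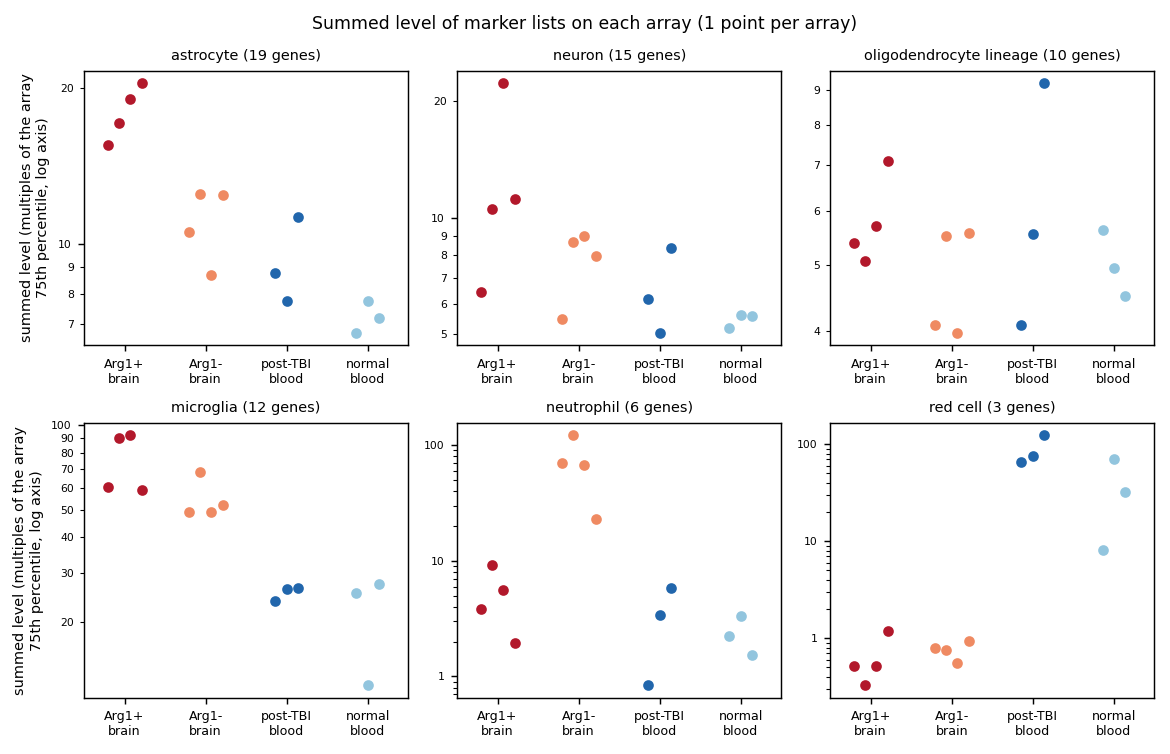
Summed level of 6 lists of marker genes on each of the 14 arrays (multiples of the array's 75th percentile, log axis), 1 point per array. Astrocyte genes are highest on Arg1+ arrays (15.52 to 20.45), much of it from Plpp3 and Glul, neutrophil genes on Arg1- arrays (22.90 to 121.46) and red cell genes on blood arrays (8.16 to 122.97).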

How the data were processed

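Per the file headers, the deposited scanner files come from Feature Extraction 10.7.3.1 and hold, for each spot, processed, median and background signal intensities and other values such as flags. The authors also deposited a table of log2 values whose ranks within each array equal those of the median signal. The submitters' processing notes name limma, with no version, and the array annotation is on mm9, so no positions on that build are given, and the only coordinates are those of 2 RefSeq promoters on GRCm38.p6. Each processed intensity was scaled to the 75th percentile of the non-control probes on its array, raised to at least 0.05 and log2 transformed. Spots called outliers by the scanner software were set to missing, which touched no reading of the 8 genes. In the summed levels of marker lists a missing spot added nothing. A sum, or a count of genes above background, can thus be lower on an array with a missing spot. Probes well above background on at least 3 of 14 arrays, with at least 2 usable arrays in each group, were tested (27605 of 41174). Symbols came from RefSeq accessions (table on GRCm38.p6). One limma 3.58.1 fit in R 4.3.3 (lmFit, eBayes with trend, two-sided) held all 14 arrays in 4 groups, and p-values were adjusted by Benjamini-Hochberg over all tested probes and called under 0.05. The scripts were tested on simulated data with no floor and the same spread in all groups. That test thus does not cover probes at the floor on the blood arrays. All probes of the 8 genes are given. In each marker list the brightest tested probe stood for a gene, up to 4 called genes with the largest difference per comparison could be named, as could any widely expressed relative of the 8 genes and the 3 symbols most correlated with each probe above background on all brain arrays. Aqp4, Clu, Cnp, Syp, Csf1r and Itgam fall outside this rule and were named after their values were seen. The genes, lists and tests were chosen with earlier results of these data known.

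Alternatives were quantile normalization, normexp (offset 50, on the median signal, since no mean signal was used here) with quantile normalization, which changes both steps at once, the authors' deposited log2 values, no or a stricter filter on dim probes, a floor of 0.1, outlier spots kept, slide or replicate number as a block, only the 2 groups compared, and each array left out in turn. The number of arrays limits the precision. Each slide was scanned once, and slides 1 to 3 hold 1 array of each group, while slide 4 holds 1 of each brain group. Samples with the same replicate number did not deviate together (r from -0.45 to 0.39 over 18 pairs, 5 of them above 0.1), so the numbers were not taken as pairs. Arrays of the same slide did (r from 0.02 to 0.58, 18 of 19 pairs above 0.1), and the main fit left slide out. With slide as a block, 791 probes were called higher and 1081 lower in Arg1+ than in Arg1- macrophages, in place of 636 and 813. Calls of the 11 probes changed only for Gfap in Arg1- macrophages against post-TBI monocytes.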

Additional observations from a re-analysis of the deposited data

Results flagged for a closer look

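Among 22 sets of 4 brain arrays (11 probes in 2 groups), 2 had an array far from the other 3, where chance gives about 1 in 20. For Gja1, Arg1- array 4 read -4.27, while the other Arg1- arrays read -3.81, -3.79 and -3.80. Of these 4 only the reading of -3.80 was above background, so the flag orders readings that are mostly undetected. For Fabp7, Arg1- array 2 read -1.23, while the nearest of the others read -2.01 and all Arg1+ arrays lay above it.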

How the results depend on the processing

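The calls of Gja1, Fabp7 and Nefl in Arg1+ over Arg1- macrophages held under every alternative run, except that Gja1 was not tested under the stricter filter. Post-TBI against normal monocytes was the least stable comparison: 35 probes were called among all tested, but 22 with no filter on dim probes, 2 with the replicate block and 0 with only the 2 blood groups in the limma fit, and the call of Fabp7 fell to 0 probes in the last 2. The replicate block changed no other call of the 11 probes. With a floor of 0.1 the difference of Gfap between the blood groups turned from -0.09 to 0.11. When each array was left out in turn, the probes called among all tested ran from 774 (without Arg1- array 3) to 2309 (without post-TBI array 4) in Arg1+ against Arg1- macrophages, with 895 without Arg1+ array 3, and from 2 (without post-TBI array 3) to 75 (without post-TBI array 1) between the blood groups. There, 57 were called without normal array 3, 12 without normal array 2, 13 without post-TBI array 4, 19 without Arg1- array 3, 20 without Arg1+ array 4 and 23 without Arg1- array 4. Probes of the 8 genes called between the blood groups then ran from 0 to 1. Signs turned among differences that were never called: Slc1a2 A_52_P168496 in Arg1+ minus Arg1- ran from -0.39 to 0.13, and between the blood groups Gfap ran from -0.45 to 0.41, Mbp A_51_P349205 from -0.37 to 0.67 and Mbp A_52_P329451 from -0.26 to 0.63. The cause of these changes was not tested. Normexp and quantile normalization together gave smaller differences for most of the 8 genes. Mbp A_51_P349205 in Arg1+ against post-TBI blood was 1.82 in place of 2.82, and Fabp7 between the blood groups 1.22 in place of 1.91, while quantile normalization alone gave 2.81 and 1.90. In Arg1+ against post-TBI blood Nefl was 0.84 in place of 1.91, Gja1 0.70 in place of 1.57 and Slc1a2 A_51_P477875 0.75 in place of 1.70. There Gfap was 0.62 in place of 1.54, and 0.85 with the authors' deposited values. These smaller differences were still called. Values against probes at the floor depend on where the floor is set. For the marker genes given as at least, such as Plpp3, Kdr, Uchl1 and Ttr, no value at another floor is given.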
